A study of Mus musculus with 16 samples.

Results

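Transcripts of 10 CC chemokines that attract monocytes and lymphocytes were followed in bone marrow-derived macrophages (BMDMs) by RNA-seq. The members were chosen by gene symbol (Ccl2, Ccl7, Ccl8, Ccl12, Ccl3, Ccl4, Ccl5, Ccl6, Ccl9 and Ccl24), and all 10 were among the 22287 genes of the count table and among the 12514 genes tested. Bone marrow of C57BL/6J mice aged 8 weeks was cultured for 7 days with GM-CSF (GM) or M-CSF (M), on dishes with a tissue culture treated surface (TC) or without that treatment (noTC). The cells were then given vehicle (steady state) or lipopolysaccharide (LPS), a component of the wall of Gram-negative bacteria, for 3 h. This gave 8 groups of 2 libraries, 16 in all, named by growth factor and dish (GM-TC, M-noTC and so on) with LPS added to the name after challenge. The cells were differentiated in vitro and unsorted, and no genotype was altered.

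CC chemokines are small secreted proteins with a pair of adjacent cysteines near the N-terminus. They bind G protein-coupled receptors on leukocytes and direct these cells along a gradient. Ccl2, Ccl7 and Ccl12 act through Ccr2 on inflammatory monocytes, Ccl3, Ccl4 and Ccl5 act on monocytes and T cells, and Ccl24 attracts eosinophils through Ccr3. Ccl6 and Ccl9 are rodent chemokines related to each other that are made by myeloid cells and act through Ccr1. Macrophages that sense LPS through Tlr4 activate NF-kB and interferon regulatory factors, and several of these genes are known targets of that signalling.

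The members lie on chromosome 11 in the order Ccl2, Ccl7, Ccl12, Ccl8, Ccl5, Ccl9, Ccl6, Ccl3 and Ccl4, except Ccl24, which lies on chromosome 5. RefSeq (GRCm38.p6) gave a window of 250 bases before to 50 bases after the start for 5 of the 10 members, namely Ccl12, Ccl8, Ccl9, Ccl6 and Ccl3. The 4 windows below, each written 5′ to 3′ on the strand of its gene, belong to a pair that rose strongly upon LPS (Ccl12 and Ccl3), a member that rose by less (Ccl9) and the member that changed least (Ccl6). Capitals mark the letters TATAAA of a TATA box, TGANTCA of an AP-1 site or GAGGAA of an ETS site, on either strand.
Ccl12, chr11:82101595-82101894, plus strand: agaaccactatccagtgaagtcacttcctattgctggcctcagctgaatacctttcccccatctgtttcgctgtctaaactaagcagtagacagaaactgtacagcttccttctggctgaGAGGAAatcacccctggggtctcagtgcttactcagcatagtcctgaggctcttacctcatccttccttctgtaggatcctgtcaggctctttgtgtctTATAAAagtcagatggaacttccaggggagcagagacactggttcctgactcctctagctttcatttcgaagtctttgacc
Ccl3, chr11:83649329-83649628, minus strand: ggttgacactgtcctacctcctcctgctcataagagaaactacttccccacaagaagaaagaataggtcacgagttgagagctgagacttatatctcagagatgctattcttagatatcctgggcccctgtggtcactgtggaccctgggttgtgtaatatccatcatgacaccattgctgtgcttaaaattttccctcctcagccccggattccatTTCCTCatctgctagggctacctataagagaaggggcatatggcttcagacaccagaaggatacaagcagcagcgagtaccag
Ccl9, chr11:83578587-83578886, minus strand: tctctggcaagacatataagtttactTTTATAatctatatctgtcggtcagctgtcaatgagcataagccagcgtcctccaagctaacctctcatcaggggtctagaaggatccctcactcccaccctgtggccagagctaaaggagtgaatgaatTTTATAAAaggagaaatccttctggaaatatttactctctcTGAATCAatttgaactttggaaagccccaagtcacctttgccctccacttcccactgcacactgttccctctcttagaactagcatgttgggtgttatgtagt
Ccl6, chr11:83593038-83593337, minus strand: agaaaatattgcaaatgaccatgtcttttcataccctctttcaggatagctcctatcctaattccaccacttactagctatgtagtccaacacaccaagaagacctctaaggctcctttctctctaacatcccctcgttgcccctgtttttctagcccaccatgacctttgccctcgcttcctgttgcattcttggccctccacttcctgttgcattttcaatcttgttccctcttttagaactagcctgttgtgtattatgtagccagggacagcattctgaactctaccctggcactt

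TATAAA began 31 bases before the start of Ccl12 and 32 bases before that of Ccl8, whereas in Ccl9 it began 92 bases before the start, inside a stretch that also read TATAAA on the other strand. The window of Ccl9 held TGAATCA from 53 bases before the start. GAGGAA was found in the windows of Ccl12, Ccl8 and Ccl3, and the window of Ccl6 held none of the motifs searched. The NF-kB pattern (GGGA, any 4 letters, then CC) and the pattern of an interferon response element (GAAA, any 2 letters, then GAAA) matched none of the 5 windows. Over all 32851 windows of this length, on both strands, the shares with a match were 13.6% for TATAAA, 7.81% for TGANTCA, 28.3% for GAGGAA, 20.7% for the NF-kB pattern and 3.44% for the interferon response element. The windows of the neighbours Ccl6 and Ccl9 shared a stretch of 13 bases, gccctccacttcc, which was the longest between any pair of the 5.

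Libraries held 17527802 to 31458363 counts, and a gene with 3 counts then stands at 0.0954 to 0.171 CPM, the usual count scaled for depth, a floor that covers counting error only. The 6 macrophage markers (Adgre1, Csf1r, Itgam, Cd68, Lyz2 and Mertk) summed to 19900 to 46500 CPM in each library. Sums were low for the lists of T cells (1.61 to 10.3 CPM over 6 genes, with Cd3e at 0 in all libraries), NK cells (0.0399 to 1.59 CPM over 4 genes, with Ncr1 and Klrd1 at 0), B cells (0 to 1.14 CPM over 4 genes), neutrophils (0.0374 to 6.68 CPM over 5 genes) and mast cells and basophils (0 to 2.79 CPM over 5 genes). The list of 3 eosinophil genes summed to 52.9 to 79.9 CPM in GM and 0.878 to 3.49 CPM in M, nearly all of it Siglecf, while Epx reached 0.182 CPM at most. The 4 dendritic cell genes summed to 11.4 to 12.8 CPM in GM and 62.4 to 73.1 CPM in GM with LPS, with Ccr7 the largest part, and to at most 3.84 CPM in M. The 5 fibroblast genes summed to 1.08 to 16.7 CPM, and the 3 endothelial genes to 12.2 to 14.7 CPM at steady state and 44 to 117 CPM upon LPS, most of it Kdr. The 5 heart muscle genes summed to 14.5 to 46.7 CPM in steady state libraries from TC dishes and to 0.237 CPM at most in all others. The part that other cells had in the results below was not tested, and in bulk RNA fewer cells of a type and less RNA per cell cannot be told apart.

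At steady state the CC chemokine transcripts of GM cells were mostly Ccl6, those of M cells mostly Ccl9, Ccl6 and Ccl3, and upon LPS both kinds of cell held a broad mixture. Levels of different genes were compared as TMM scaled CPM per kb of exon length. Lengths ran from 511 to 3045 bases in the GENCODE annotation of GRCm38, each merging all annotated exons of a gene. On that scale the 10 members together reached 8788 and 10024 in the GM libraries on TC, 8784 and 8851 in those on noTC, and 460.0 and 462 (TC) and 535 and 548 (noTC) in the M libraries. With LPS the sums were 18342 and 18164 (TC) and 19738 and 18448 (noTC) for GM, and 16377 and 17031 (TC) and 14943 and 16510.0 (noTC) for M. On this scale M cells thus started far below GM cells and came close to them upon LPS. Every M library with LPS lay below every GM library with LPS. Without division by length the gap upon LPS was wider. Summed CPM were then 15136 to 16889 in M with LPS and 26414 to 28686 in GM with LPS.

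Ccl6 made up 92.2% of the summed level in GM-TC and 89.6% in GM-noTC at steady state, and still 48.6% and 47.3% upon LPS. In M-TC and M-noTC it made up 28.1% and 24.7%, behind Ccl9 with 49.7% and 46.5%. Upon LPS Ccl3 was first in M cells, with 37.4% in M-TC-LPS and the same rounded share in M-noTC-LPS. Ccl4 followed with 26.5% and 24.5%. These shares depend on the lengths used. In M-TC-LPS Ccl3 and Ccl9 had 4790 and 4339 CPM, which were divided by 766 and 3045 bases. Ccl8 and Ccl24 stayed the smallest parts, at most 0.101% and 0.0159% of the sum in any group.

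**Figure D1:**
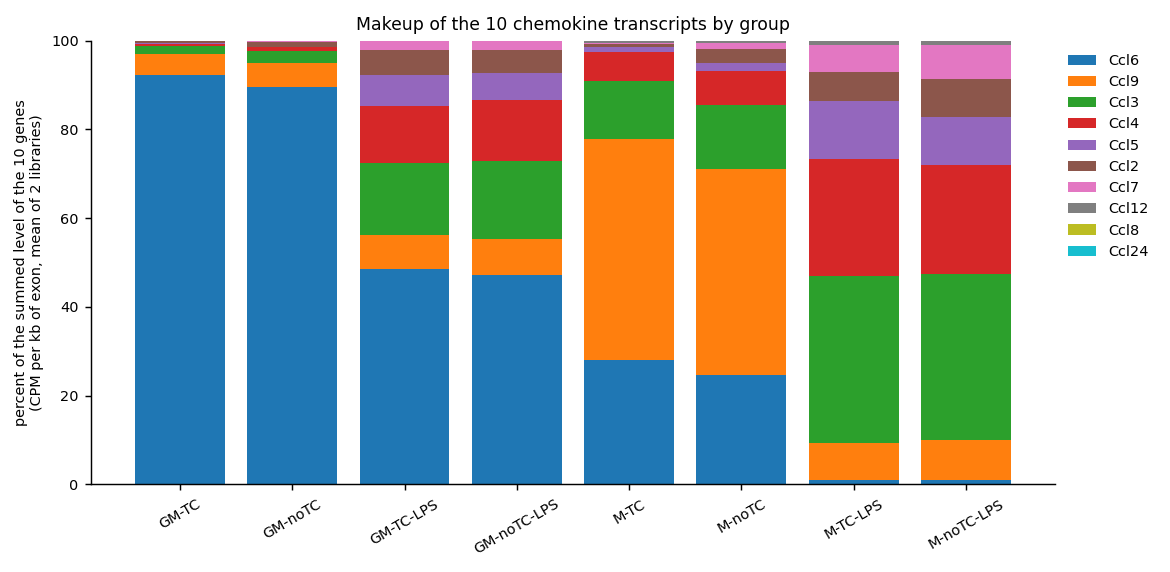
Stacked bars give the percent of the summed level of the 10 chemokines (CPM per kb of exon, mean of 2 libraries) that each gene held in each of the 8 groups. Ccl6 fills 92.2% of the bar in GM-TC, Ccl9 49.7% in M-TC, and Ccl3 37.4% in M-TC-LPS.

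**Figure D2:**
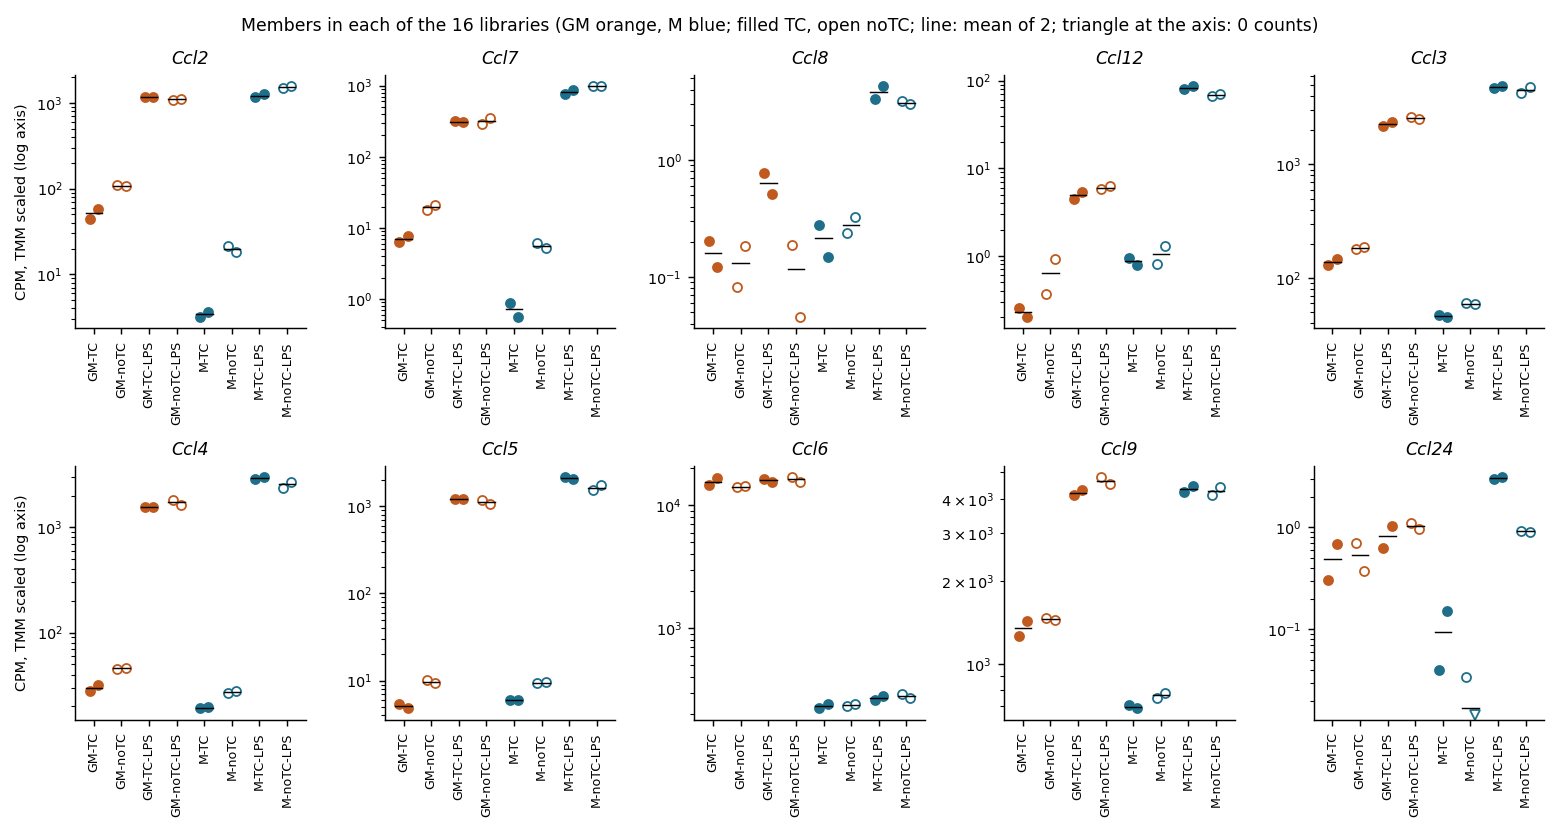
Each panel plots 1 gene in the 16 libraries as TMM scaled CPM on a log axis, with GM in orange, M in blue, TC filled, noTC open, a line at the mean of 2 libraries and a triangle at the axis for a library with 0 counts. Ccl5 runs from at most 10.1 CPM at steady state to at least 1064 CPM upon LPS in all cultures, and Ccl6 separates GM from M in all of them.

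The first comparison asked how each culture answered LPS. The test was edgeR's quasi-likelihood test over all 16 libraries with Benjamini-Hochberg (BH) adjustment over the 12514 genes, and a member was called at an adjusted p under 0.05. Upon LPS 8 members rose in GM cells on either dish and 10 in M cells on either dish, and none fell with TMM scaling, although Ccl6 was called as lower in all 4 cultures when scaled by library size alone. Of all genes tested, 32.8% rose and 34.2% fell in GM cells on TC, and 33.6% rose and 34.0% fell on noTC. In M cells 37.6% of all genes rose and 36.4% fell on TC, and 36.4% rose and 35.9% fell on noTC. Scaled by library size alone, 78.5% to 81% of the genes called upon LPS were lower. The median log2 fold change of the 10 members was 4.24 on TC and 3.25 on noTC for GM, and 6.63 and 6.104 for M, where that of all genes tested was -0.051, -0.034, -0.0084 and -0.0061 in the same order. The members not called in GM cells were Ccl24 on both dishes, Ccl6 on TC and Ccl8 on noTC. With 2 libraries on each side the smallest two-sided p of an exact permutation test is 0.333, so all p-values below come from the fit across genes, and comparisons that use the same group share its libraries.

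**Figure D3:**
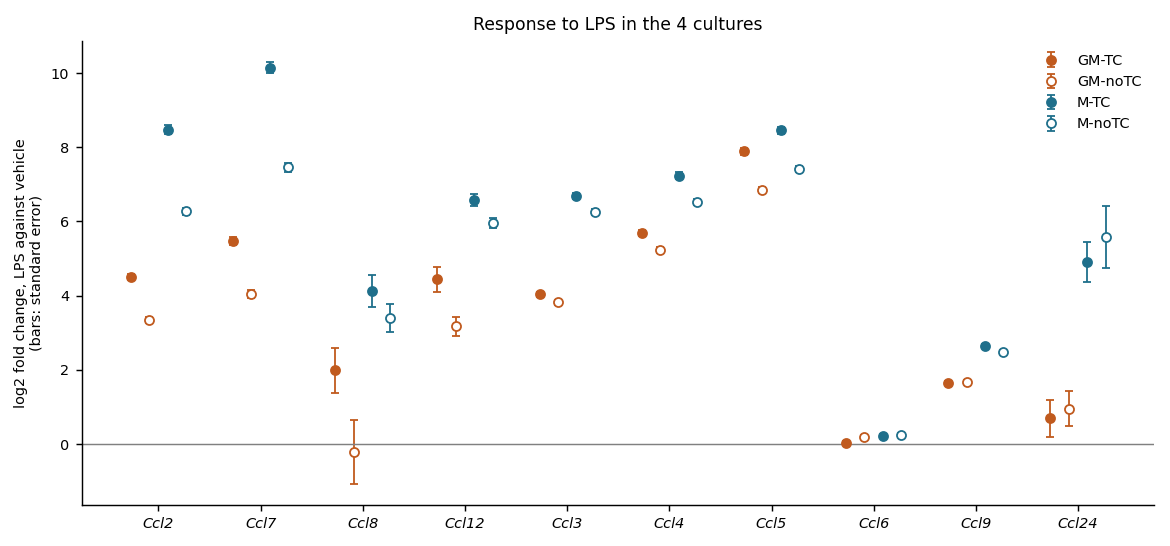
Points give the log2 fold change of each member upon LPS against vehicle, with bars for the standard error from the fit, in the 4 cultures. Ccl5 leads in GM cells at 7.89 and 6.85, Ccl7 leads in M-TC at 10.15, and Ccl6 lies between 0.032 and 0.24.

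Ccl2, the main attractant of Ccr2-bearing monocytes, was highest in GM cells at steady state and in M cells on noTC upon LPS. All libraries with LPS held between 1094 and 1571 CPM of Ccl2. Its CPM in replicates 1 and 2 were 44.8 and 58.1 for GM cells on TC, 111 and 107 for GM cells on noTC, 3.19 and 3.67 for M cells on TC, and 21.5 and 18.3 for M cells on noTC. Upon LPS they were 1180.3 and 1157 for GM on TC, 1094 and 1103 for GM on noTC, 1171 and 1269 for M on TC, and 1497 and 1571 for M on noTC. All LPS libraries lay above all steady state libraries, and M-TC was the lowest group. The log2 fold change upon LPS was 4.499 ± 0.089 (SE, n = 2 libraries a group here and below) on TC and 3.34 ± 0.082 on noTC in GM cells. In M cells it was 8.47 ± 0.12 and 6.28 ± 0.097. The BH-adjusted p in the 4 cultures lay between 5.8e-24 and 1.47e-19 in edgeR. The SE of a log2 difference, here and below, was derived from the edgeR fit, which pools spread over genes and all 16 libraries. It does not measure the spread of the 2 libraries of a group alone. In linear terms Ccl2 rose 22.6-fold in GM-TC and 354-fold in M-TC. Only the neighbours M-TC-LPS and GM-TC-LPS overlapped in the order of the 8 group means.

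Ccl7, which binds Ccr2 and further receptors, followed nearly the same order of groups at lower levels. Its CPM were 6.31 and 7.61 for GM cells on TC, 18.1 and 21.03 for GM cells on noTC, 0.878 and 0.561 for M cells on TC, and 6.07 and 5.23 for M cells on noTC at steady state. With LPS they were 314 and 309.8 for GM on TC, 292 and 354 for GM on noTC, 760.0 and 878 for M on TC, and 987 and 985 for M on noTC. Both M groups with LPS lay above both GM groups with LPS, and these did not differ beyond their spread. Its log2 response to LPS was 5.47 ± 0.12 on TC and 4.04 ± 0.099 on noTC in GM cells, and 10.15 ± 0.15 and 7.46 ± 0.12 in M cells (edgeR, largest BH-adjusted p 1.3e-19). The value in M-TC, where Ccl7 had 22 and 15 counts before LPS, was the largest of any member in any culture.

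Ccl12, a Ccr2 ligand found in mice, was low in every culture at steady state and became mainly a transcript of M cells upon LPS. Its CPM were 0.252 and 0.201 for GM cells on TC, 0.367 and 0.924 for GM cells on noTC, 0.957 and 0.786 for M cells on TC, and 0.809 and 1.301 for M cells on noTC at steady state. Upon LPS they rose to 4.45 and 5.43 for GM on TC, 5.73 and 6.205 for GM on noTC, 79.98 and 86.7 for M on TC, and 66.4 and 70.5 for M on noTC. Every M library with LPS lay above every GM library with LPS, and GM-TC was the lowest group at steady state. On the log2 scale it rose by 4.44 ± 0.34 on TC and 3.17 ± 0.24 on noTC in GM cells, and 6.57 ± 0.16 and 5.96 ± 0.14 in M cells (edgeR, largest BH-adjusted p 1.29e-10). The GM values start from few reads, 5 and 5 counts in GM-TC and 9 and 25 in GM-noTC.

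Ccl8 was rare, and in mice it acts through Ccr8. GM libraries at steady state held 4 and 3 counts on TC and 2 and 5 on noTC, and M libraries 7 and 4 on TC and 7 and 14 on noTC. With LPS the counts in GM were 15 and 11 on TC and 4 and 1 on noTC, and in M 68 and 74 on TC and 62 and 60 on noTC. The M groups with LPS stood apart from all others at 3.82 ± 0.674 and 3.09 ± 0.134 CPM (mean ± SD, n = 2), and the 5 lowest groups overlapped their neighbours in order. The ratio of the summed counts, scaled for depth, was 17.8 (exact interval 9.66 to 36.5) in M-TC and 10.7 (exact interval 6.69 to 17.9) in M-noTC, both called in edgeR (BH-adjusted p = 1.16e-08 and 5.39e-08). In GM-TC the ratio was 4.06 (exact interval 1.71 to 11.1), called at an adjusted p of 0.00666 in edgeR but not without GM-TC replicate 2 or GM-TC-LPS replicate 1 (0.069 and 0.0603). In GM-noTC it was 0.856 (exact interval 0.214 to 3.13). These intervals, like all ratios of counts here, cover counting error only.

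Ccl3, a ligand of Ccr1, was the most abundant member per length in M cells upon LPS. Its CPM were 131 and 146 for GM cells on TC, 179 and 186 for GM cells on noTC, 47.1 and 45.4 for M cells on TC, and 60.05 and 58.6 for M cells on noTC at steady state. LPS took them to 2196 and 2346 for GM on TC, 2625 and 2532 for GM on noTC, 4690.4 and 4889.9 for M on TC, and 4245 and 4781 for M on noTC. The 4 steady state groups kept the order GM-noTC, GM-TC, M-noTC and M-TC without overlap, and upon LPS the M groups lay above the GM groups. LPS raised it by log2 4.03 ± 0.066 on TC and 3.82 ± 0.065 on noTC in GM cells, and 6.69 ± 0.076 and 6.25 ± 0.074 in M cells (edgeR, largest BH-adjusted p 2.05e-22).

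Ccl4, an attractant of monocytes and T cells encoded beside Ccl3, showed the same order of groups. Its CPM were 28.1 and 31.7 for GM cells on TC, 45.1 and 46.3 for GM cells on noTC, 19.2 and 19.6 for M cells on TC, and 26.9 and 27.9 for M cells on noTC at steady state. With LPS the values were 1549 and 1564 for GM on TC, 1833 and 1622 for GM on noTC, 2873 and 2975 for M on TC, and 2379 and 2715 for M on noTC. No library of one group overlapped those of the next in order, although GM-TC and M-noTC differed by less than the sum of their SDs, and M cells led GM cells only upon LPS. LPS raised Ccl4 by log2 5.698 ± 0.080 on TC and 5.24 ± 0.076 on noTC in GM cells, and 7.24 ± 0.085 and 6.54 ± 0.081 in M cells (edgeR, largest BH-adjusted p 1.37e-23). RefSeq lets a span of Ccl4 run over Ccl3 on the opposite strand, and whether the counting used strand was not given in the sources used here, so reads there could not be assigned with certainty.

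Ccl5, which attracts T cells and monocytes, was low at steady state in all cultures. Its CPM were 5.35 and 4.83 for GM cells on TC, 10.1 and 9.31 for GM cells on noTC, 5.94 and 5.99 for M cells on TC, and 9.47 and 9.57 for M cells on noTC. Upon LPS they were 1205 and 1201 for GM on TC, 1176 and 1064 for GM on noTC, 2143 and 2054 for M on TC, and 1534 and 1734 for M on noTC. All libraries with LPS lay above all without, and the spread among the 4 steady state groups was small beside that step. Its log2 increase was 7.89 ± 0.089 on TC and 6.85 ± 0.081 on noTC in GM cells, and 8.46 ± 0.087 and 7.42 ± 0.081 in M cells (edgeR, largest BH-adjusted p 6.85e-25), which is 237-, 115-, 352- and 172-fold. The noTC values rest on the steady state level there, and with the share described further below subtracted from it they were 8.17 in GM and 8.25 in M on the log2 scale.

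Ccl6 differed between growth factors in every condition and hardly with LPS. Its CPM were 14551 and 16599.8 for GM cells on TC, 14122 and 14241 for GM cells on noTC, 225 and 241 for M cells on TC, and 236 and 243 for M cells on noTC. Upon LPS they were 16306 and 15538 for GM on TC, 16874 and 15563 for GM on noTC, 259.7 and 282 for M on TC, and 293 and 274 for M on noTC. GM and M libraries lay far apart, and GM-TC and GM-TC-LPS overlapped. The log2 change upon LPS was 0.032 ± 0.059 for GM on TC (edgeR, BH-adjusted p = 0.646) and 0.19 ± 0.059 on noTC (0.00625). For M cells it was 0.22 ± 0.062 on TC (BH-adjusted p = 0.00334) and 0.24 ± 0.061 on noTC (0.00129). The call was lost in GM on noTC without GM-noTC-LPS replicate 1 (BH-adjusted p = 0.106) and in M on TC without M-TC replicate 1 or M-TC-LPS replicate 2 (0.0565 and 0.0635), and GM on TC passed without GM-TC replicate 2 (0.0382). These small changes have no fixed direction, since scaled by library size without TMM factors they were -0.45, -0.32, -0.61 and -0.48 (edgeR, largest BH-adjusted p 2.98e-05), while the median of all genes then moved to -0.53, -0.54, -0.83 and -0.73. Ccl6 lay slightly above the median of all genes under both scalings. A change of scaling shifts all genes nearly alike, so this is not a separate check.

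Ccl9, the relative and genomic neighbour of Ccl6, was expressed in all cultures at steady state and rose moderately. Its CPM were 1261 and 1433 for GM cells on TC, 1469.6 and 1439 for GM cells on noTC, 706 and 689 for M cells on TC, and 749 and 785 for M cells on noTC. LPS took them to 4110.0 and 4291 for GM on TC, 4785 and 4520.0 for GM on noTC, 4229.8 and 4448 for M on TC, and 4130.0 and 4411 for M on noTC. GM lay above M at steady state, and upon LPS the groups lay close together, with M-TC-LPS, M-noTC-LPS and GM-TC-LPS overlapping their neighbours. It rose by log2 1.64 ± 0.057 on TC and 1.68 ± 0.057 on noTC in GM cells, and 2.64 ± 0.059 and 2.48 ± 0.059 in M cells (edgeR, largest BH-adjusted p 6.91e-17).

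Ccl24, an eosinophil attractant that macrophages can make, was near the floor in M cells at steady state. GM libraries at steady state held 6 and 17 counts on TC and 17 and 10 on noTC, and M libraries 1 and 4 on TC and 1 and 0 on noTC. With LPS the counts in GM were 12 and 22 on TC and 23 and 21 on noTC, and in M 61 and 53 on TC and 18 and 18 on noTC. M-TC-LPS was the highest group at 3.04 ± 0.05501 CPM (mean ± SD, n = 2), with no overlap with the others. The ratio upon LPS was 31.5 (exact interval 13.1 to 98.8) in M-TC and 66.2 (exact interval 11.2 to 2690) in M-noTC, both called in edgeR (BH-adjusted p = 4.41e-08 and 3.18e-06). In GM-TC and GM-noTC it was 1.61 (exact interval 0.924 to 2.87) and 1.95 (exact interval 1.18 to 3.28), neither of them called.

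The second comparison set M cells against GM cells. The study seeded M-CSF cultures at a lower cell density than GM-CSF cultures. Growth factor and seeding density thus cannot be told apart here or in the interaction with LPS. At steady state GM cells had the higher level of most members, and upon LPS M cells did, while Ccl6 stayed higher in GM throughout. On TC dishes at steady state 1 member was higher in M (Ccl12) and 7 were lower, and on noTC dishes none was higher and 7 were lower. Of all genes tested, 28.9% were higher and 32.6% lower in M on TC, and 30.7% and 31.4% on noTC. Upon LPS 7 members were higher in M and 1 was lower on either dish, where 32.9% of all genes were higher and 33.9% lower on TC, and 32.6% and 33.5% on noTC. The median log2 difference of the members went from -1.27 to 0.99 on TC and from -1.27 to 0.55 on noTC, with all genes tested between -0.028 and 0.

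Ccl6 was 66.9-fold higher in GM than in M on TC, 59.2-fold on noTC, and 58.9- and 57.2-fold upon LPS, with BH-adjusted p of 7.56e-24 or less in edgeR. Ccl2 was 15.02-fold and Ccl7 9.76-fold higher in GM on TC, and 5.500- and 3.505-fold on noTC. Upon LPS Ccl7 was 2.63-fold higher in M on TC and 3.05-fold on noTC. Ccl2 was called only on noTC there, at 1.397-fold (edgeR, BH-adjusted p = 6.05e-06), against 1.04-fold on TC (BH-adjusted p = 0.476). A reversal of the 2 growth factors was thus measured for Ccl7 on both dishes and for Ccl2 on noTC.

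Ccl3 and Ccl4 changed sides as well. At steady state the log2 difference of M from GM was -1.58 ± 0.066 for Ccl3 and -0.63 ± 0.085 for Ccl4 on TC, and -1.62 ± 0.063 and -0.74 ± 0.075 on noTC. Upon LPS it was 1.08 ± 0.058 and 0.91 ± 0.062 on TC, and 0.81 ± 0.058 and 0.56 ± 0.062 on noTC, all with BH-adjusted p of 1.19e-06 or less in edgeR. Ccl9 was 1.93-fold higher in GM on TC and 1.897-fold on noTC at steady state, and was not called upon LPS (log2 0.047 and -0.12). Ccl5 was not called at steady state (log2 0.23 on TC and -0.026 on noTC) and was 1.74- and 1.46-fold higher in M upon LPS. With library size only, Ccl5 was higher in M at steady state too, by 0.55 and 0.26 on the log2 scale (BH-adjusted p = 0.000516 and 0.0154), and all genes then had medians of 0.29 and 0.29. With the share of other libraries subtracted, which is described further below, it was higher in M on noTC by 0.47 (BH-adjusted p = 0.00352).

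Ccl12 had the largest excess of M over GM upon LPS on TC among the members, 16.8-fold, and was 11.4-fold higher on noTC (edgeR, BH-adjusted p = 1.35e-17 and 1.05e-16). At steady state its counts summed to 45 in M-TC and 10 in GM-TC, a ratio of 3.88 (exact interval 1.93 to 8.63), which was called (BH-adjusted p = 0.00175), and to 80 and 34 on noTC, which was not (BH-adjusted p = 0.0552). The latter did pass with library size only (0.00685), with the share subtracted (0.0314), with DESeq2 and without an expression filter, and without GM-noTC replicate 2 or M-noTC replicate 1 (BH-adjusted p = 0.00457 and 0.0155 in edgeR). Ccl8 had a ratio of 5.95 (exact interval 3.9 to 9.42) in M against GM upon LPS on TC and 26.6 (exact interval 11.1 to 83.3) on noTC, both called. Ccl24 was higher in GM at steady state, where M-TC against GM-TC gave 0.187 (exact interval 0.0556 to 0.504) and M-noTC against GM-noTC, with 1 count against 27, gave 0.0263 (exact interval 0.000642 to 0.159). The first of these was not called without GM-TC replicate 2 or M-TC replicate 1 (BH-adjusted p = 0.171 and 0.0787 in edgeR). Upon LPS Ccl24 was higher in M on TC, at 3.65 (exact interval 2.47 to 5.53), and not called on noTC, at 0.891 (exact interval 0.557 to 1.42).

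**Figure D4:**
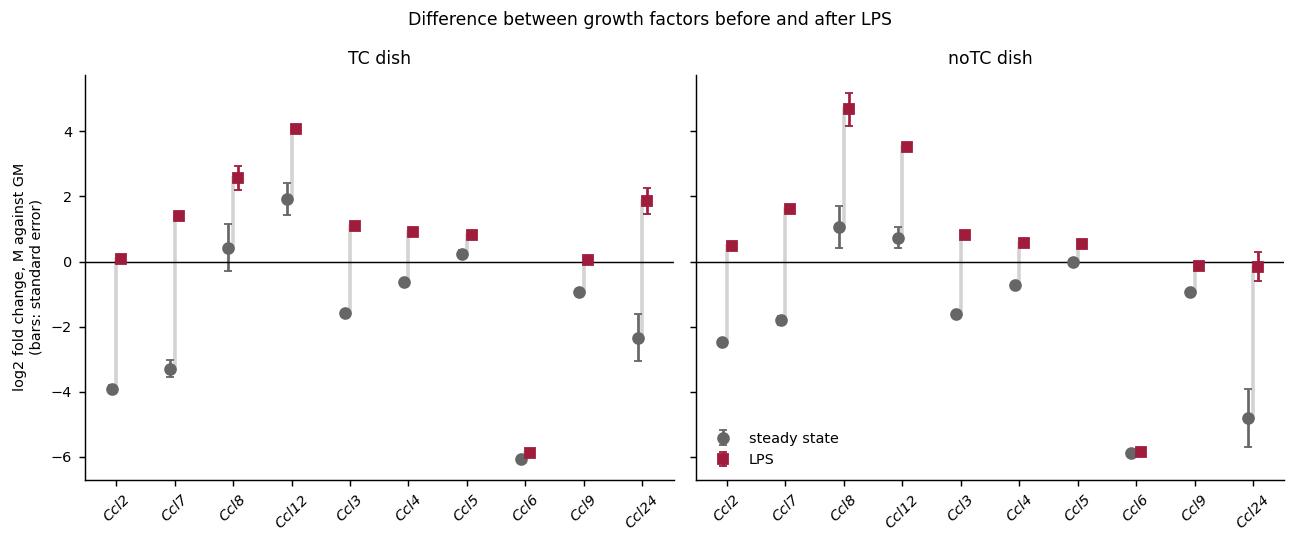
Circles (steady state) and squares (LPS) give the log2 fold change of M against GM on TC (left) and noTC (right). Bars give the standard error from the fit. Ccl7 moves from -3.29 to 1.39 on TC, and Ccl6 stays at -6.06 and -5.88.

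Whether the response to LPS differed between growth factors was tested as an interaction. On TC 8 members had a larger log2 response in M than in GM and on noTC 9 did, none had a smaller one, and 41.1% and 36.2% of all genes tested were called in either direction. The excess of the response in M was largest for Ccl7 on TC, at 4.68 ± 0.26, and was 3.97 ± 0.15 for Ccl2, 2.66 ± 0.088 for Ccl3 and 1.54 ± 0.105 for Ccl4. Ccl5 had a small one, 0.57 ± 0.14 (edgeR, BH-adjusted p = 0.00231), and with library size only it was 0.22 (BH-adjusted p = 0.191). On noTC Ccl5 was called at 0.57 ± 0.11, but with the share of other libraries subtracted it came to 0.074 and was not (BH-adjusted p = 0.749). Ccl12 on TC was not called without either GM-TC library (BH-adjusted p = 0.0842 and 0.0545), nor Ccl8 on noTC without GM-noTC replicate 2 (0.167). Ccl6 was called on neither dish (0.18 ± 0.085 and 0.048 ± 0.085), nor was Ccl8 on TC (2.15 ± 0.88, BH-adjusted p = 0.058). Ccl6 did pass on noTC with the share subtracted (0.28, BH-adjusted p = 0.0144), and on TC without an expression filter and without GM-TC replicate 1 or M-TC-LPS replicate 1 (0.00254 and 0.0491).

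The third comparison set noTC against TC dishes, which the study set out to compare. At steady state Ccl2, Ccl7, Ccl3, Ccl4 and Ccl5 were higher on noTC in GM and in M cells, and none of the 10 was lower. These are 5 members in either culture, where 4.69% of all genes were higher and 2.85% lower in GM, and 16.1% and 11.1% in M. The median log2 difference of the members was 0.503 in GM and 0.39 in M, with 0 and 0.011 for all genes. Ccl2 was 2.104-fold higher on noTC in GM and 5.75-fold in M (edgeR, BH-adjusted p = 1.78e-08 and 1.64e-11). Ccl7 was 2.79- and 7.77-fold higher (BH-adjusted p = 1.54e-07 and 1.29e-08). The other members called differed by less, Ccl3 by 1.32- and 1.28-fold, Ccl4 by 1.52- and 1.42-fold, and Ccl5 by 1.91- and 1.596-fold. Ccl6, Ccl9, Ccl8, Ccl12 and Ccl24 were not called, and Ccl12 in GM had a log2 difference of 1.53 ± 0.52 (BH-adjusted p = 0.0806, and 0.025 without GM-noTC replicate 1). Ccl6 was called as lower in GM without GM-TC replicate 1 (-0.23, BH-adjusted p = 0.00375) and Ccl9 as higher without GM-TC replicate 2 (0.21, BH-adjusted p = 0.0126). The GM-TC libraries differed most from each other, with a chi-square per degree of freedom over genes of 12.9 against 1.92 to 5.28 in the other groups. The main fit gives all groups a shared spread for each gene. A fit to the GM-TC and GM-noTC libraries alone called 325 of all genes for the dish, against 944 in the main fit.

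In the noTC steady state libraries, genes nearly absent on TC stood at a small, even share of their level in the other libraries. This is called the share of other libraries here, although where these reads came from was not tested, and it was measured on genes that were not members. Genes with a mean under 1 CPM in the TC steady state libraries of the same growth factor and a mean of 100 CPM or more over the 10 libraries outside both TC steady state groups and the noTC group itself stood in GM-noTC above GM-TC by a median of 0.675% of that mean (15 genes, 14 of them within 1.5-fold of the median), and in M-noTC above M-TC by 0.587% (20 genes, 18 within 1.5-fold). For Ccl5 the excess on noTC was 0.537% of that mean in GM and 0.495% in M. For Ccl2 it was 7.99% and 2.72%, for Ccl7 3.604% and 1.704%, for Ccl3 2.21% and 0.752%, and for Ccl4 1.28% and 0.763%. The excess of Ccl5 was thus below the share in both cultures, and that of the other members called was above it.

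With the share subtracted from the noTC steady state libraries and the fit repeated, Ccl2 kept a log2 difference of 1.02 in GM and 2.24 in M, and Ccl7 1.31 and 2.44, all called. Ccl3 and Ccl4 kept 0.29 and 0.32 in GM, still called, whereas in M they came to 0.101 and 0.15 and were not called (edgeR, BH-adjusted p = 0.318 and 0.223). Ccl5 turned to -0.38 in GM and -0.15 in M, with BH-adjusted p of 0.126 and 0.416. Ccl6 in M turned to -0.19 and was called as lower (BH-adjusted p = 0.0327). After subtraction 4 members in GM and 3 in M were called, the latter being Ccl2 and Ccl7 as higher and Ccl6 as lower. Values after subtraction mean what they say only if these reads came from other libraries. The heart muscle transcripts given above moved with the dish at steady state, being present on TC, and their part in these differences was not tested.

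**Figure D5:**
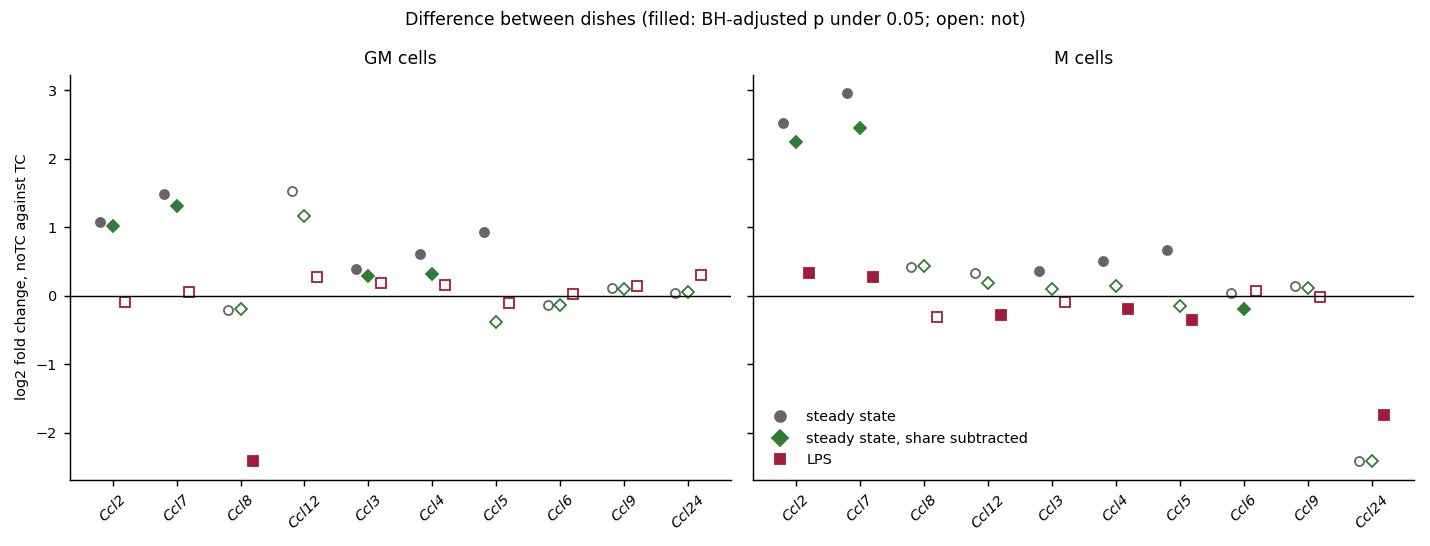
Symbols give the log2 fold change of noTC against TC for GM (left) and M (right) at steady state (circles), at steady state after subtraction of the share of other libraries (diamonds) and upon LPS (squares), filled where the BH-adjusted p was under 0.05. Ccl2 in M stays at 2.24 after subtraction and falls to 0.33 upon LPS, and Ccl5 crosses 0 in both cultures with subtraction.

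Upon LPS 1 member was called between the dishes in GM cells and 6 in M cells. In GM cells none of the 10 was higher and 1 was lower on noTC, with 2.08% of all genes higher and 0.727% lower. That member was Ccl8, with 5 counts on noTC against 26 on TC, a ratio of 0.183 (exact interval 0.0548 to 0.483), and its adjusted p of 0.0498 in edgeR passed the threshold in no fit without one of the 4 libraries (0.0815 to 0.365). In M cells Ccl2 and Ccl7 were higher by 1.26- and 1.204-fold on noTC, and Ccl12, Ccl4, Ccl5 and Ccl24 were lower. These are 2 and 4 members, with 10.4% of all genes higher and 12.9% lower. The log2 differences were -0.28 ± 0.091 for Ccl12, -0.199 ± 0.062 for Ccl4 and -0.36 ± 0.057 for Ccl5, and Ccl24 had a ratio of 0.3 (exact interval 0.2 to 0.44) from 36 counts against 114. With library size only, Ccl12 and Ccl4 were not called (-0.196 and -0.11). Ccl12 was not called in any of the 4 fits without 1 library (BH-adjusted p from 0.0555 to 0.206), Ccl7 in 3 of them (0.0715 to 0.253), Ccl4 in 3 (0.0533 to 0.353) and Ccl2 without M-TC-LPS replicate 1 (0.0503). The number of members called was 6 with all libraries, 2 without M-TC-LPS replicate 1 and 3 without M-noTC-LPS replicate 1, and the median of the 10 members was -0.14.

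The response to LPS was smaller on noTC than on TC for 4 members in GM (Ccl2, Ccl7, Ccl4 and Ccl5) and for 5 in M (the same and Ccl3), by the interaction of dish and LPS, and larger for none. Of all genes tested, 0.783% in GM and 10.6% in M were called in either direction. The difference of the log2 responses was -1.16 ± 0.11 for Ccl2 and -1.43 ± 0.16 for Ccl7 in GM, and -2.19 ± 0.16 and -2.69 ± 0.27 in M (edgeR, largest BH-adjusted p 7.87e-06). Ccl4 in GM was not called without either GM-noTC library, either GM-TC-LPS library or GM-noTC-LPS replicate 2 (BH-adjusted p from 0.0833 to 0.169). The difference was -1.04 ± 0.13 for Ccl5 in GM and -1.03 ± 0.12 in M, but 0.28 and -0.21 with the share subtracted, neither called. Ccl2 and Ccl7 were called in both cultures after subtraction, and Ccl4 in M alone, making 2 members in GM and 3 in M.

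Other CC chemokines were few in these cells. Of a list of 11 further CC chemokine genes 5 were tested, and 4 reached 1 CPM in a group. Ccl22, an attractant of Ccr4-bearing T cells, had group means of 68.7 ± 6.38 CPM in GM-TC and 62.2 ± 1.63 in GM-noTC (mean ± SD, n = 2), and of 1408 and 1788 upon LPS. In M cells its means were 0.136 on TC and 2.63 on noTC, and 52.5 and 82.2 upon LPS. Unlike most of the 10 members it was higher in GM than in M upon LPS as well, by 26.9- and 21.8-fold (edgeR, BH-adjusted p = 7.22e-22 and 1.25e-21). Ccl17, which shares the receptor Ccr4, had means of 65.3 and 76.00 CPM in GM and 252 and 344 upon LPS, against 8.94 and 8.65 in M upon LPS. Ccl1, a Ccr8 ligand, was read almost only in GM cells with LPS, with 568 counts in the 2 GM-TC-LPS libraries and 1069 in GM-noTC-LPS and at most 3 in any other group. Ccl25 stayed between 0.852 and 1.18 CPM and was called in none of the 12 comparisons of 2 groups.

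On this list 3 of 5 genes rose upon LPS in either GM culture and 2 of 5 in either M culture, and none fell. Among all genes, 32.8% (TC) and 33.6% (noTC) rose in GM, and 37.6% and 36.4% in M. In the same order 34.2%, 34.0%, 36.4% and 35.9% fell. The 2 of 5 that rose in M lie near the share of all genes. In GM with LPS, 3 of 5 were higher on noTC, Ccl1, Ccl17 and Ccl22, with log2 differences of 0.84 ± 0.17, 0.45 ± 0.098 and 0.34 ± 0.067 (edgeR, BH-adjusted p = 0.00717, 0.0112 and 0.00397). None of the 10 members was higher in that comparison, where 2.08% of all genes were higher and 0.727% lower. The share of other libraries described above was not subtracted for these genes or for the receptors below.

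The transcript of Ccr1, a receptor of several of these ligands, was far higher in GM than in M cells and fell with LPS in GM. Of 14 receptor genes 9 were tested. Upon LPS 5 rose and 3 fell in GM-TC, 5 rose and 4 fell in GM-noTC, 4 rose and 1 fell in M-TC, and 4 rose and 2 fell in M-noTC, where the shares of all genes were 32.8% and 34.2%, 33.6% and 34.0%, 37.6% and 36.4%, and 36.4% and 35.9%. Ccr1, which binds Ccl3, Ccl5, Ccl6 and Ccl9, had means of 281 ± 0.957 CPM for GM on TC and 315 ± 2.16 on noTC, and fell to 95.1 ± 5.15 and 119 ± 1.95 upon LPS (log2 -1.57 and -1.403). In M it had 2.35 and 5.39 CPM, 119- and 58.4-fold less than in GM. Ccr2, the receptor of Ccl2, Ccl7 and Ccl12, fell in all 4 cultures, with log2 changes of -2.72 on TC and -2.95 on noTC in GM, and -2.72 and -1.81 in M.

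Ccrl2, an atypical receptor that binds chemerin, rose in all 4 cultures like the inducible members, in GM from 22.3 to 864 CPM on TC and 22.2 to 857 on noTC, and in M from 11.1 to 878 on TC and 10.9 to 729 on noTC. Ccr7, which guides cells to lymph nodes and binds none of the 10, rose from 9.41 and 8.998 to 56.04 and 61.5 CPM in GM and stayed at 0.5803 CPM or less in M. Ccr3, the receptor of Ccl24, was higher in M on both dishes with and without LPS, at 0.695 and 0.811 CPM at steady state and 3.25 and 3.695 upon LPS, against at most 0.348 in GM. Ccr4, Ccr9 and Ackr3 were low, with Ccr4 at 0 counts in all 8 M libraries, Ccr9 highest in M-noTC-LPS at 2.23 CPM, and Ackr3 highest in GM-noTC with 72 counts against 15 in GM-TC.

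Few receptors were called between the dishes. On noTC 2 of 9 were higher and none lower in GM at steady state (Ccr2 and Ackr3). In M 3 were higher and none lower (Ccr1, Ccr2 and Ccr7), where Ccr7 had 17 counts on noTC against 2 on TC. Upon LPS 1 was higher in GM (Ccr1), and 2 were higher (Ccr1 and Ccr2) and 1 lower (Ccrl2) in M. All genes leaned the same way except in M upon LPS, with 4.69% higher and 2.85% lower in GM, 16.1% and 11.1% in M, 2.08% and 0.727% in GM upon LPS, and 10.4% and 12.9% in M upon LPS, so these counts are not read as particular to the receptors. Ccr2 had log2 differences of 0.68 ± 0.079 in GM and 0.42 ± 0.103 in M at steady state (edgeR, BH-adjusted p = 4.32e-06 and 0.00422), so this receptor and its ligands Ccl2 and Ccl7 were higher on noTC in the same libraries. Median log2 differences of the receptors and of all genes were 0.34 and 0 in GM, and 0.0 and 0.011 in M.

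Within the 10, levels over the 16 libraries followed one another closely for most pairs of inducible members. Pearson's r of log2 CPM was 0.996 for Ccl4 with Ccl5, 0.99 for Ccl3 with Ccl4 and 0.985 for Ccl2 with Ccl7, and for Ccl6 it lay between -0.549 with Ccl8 and 0.28 with Ccl24. These values describe 8 conditions in pairs of libraries. Outside the family, the genes with the most similar pattern, by the same r, were Eif5a and Psmd2 for Ccl2 (0.991 and 0.990), Tcp1 and Adamts4 for Ccl7 (0.989 and 0.989), Trmt1l and Slc4a7 for Ccl12 (0.991 and 0.991), and Nfyb and Tmem87a for Ccl8 (0.948 and 0.946). They were Ppp1r15b and Lcp2 for Ccl3 (0.998 and 0.998), Csnk1a1 and Gbp3 for Ccl4 (0.998 and 0.997), and Gbp5 and Tnfaip3 for Ccl5 (0.999 and 0.998). Gm2a and Mmp8 were nearest to Ccl6 (0.999 and 0.998), Serpina3g and Gypc to Ccl9 (0.996 and 0.996), and Picalm and Batf to Ccl24 (0.969 and 0.969).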

How the data were processed

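RNA-seq libraries of 16 cultures, 2 per group, were used. The study calls them biological replicates, and whether libraries with the same number share a mouse was not given in the sources used here. The values the authors deposited are expected counts per gene, without normalization. The submitters' notes name fastp 0.18.0, Bowtie2 2.2.8, HISAT2, StringTie 1.3.1 and RSEM, and a genome build was not given in the sources used here. The expected counts were rounded to whole numbers (those of the 10 members were already whole) and scaled with edgeR 4.0.16 TMM factors. Genes passing edgeR's expression filter were fitted by group over all libraries with the quasi-likelihood test in R 4.3.3, with BH adjustment over 12514 genes. Dish, LPS, growth factor and their interactions were tested as contrasts.

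The members, the lists and the alternatives were chosen with earlier results of these data known. Genes were named by rule: all 10 members, list genes at 1 CPM or more in a group, and for each member the 2 other tested genes with the highest Pearson correlation. Alternatives were DESeq2 1.42.0, its size factors, library size only, no filter, a fit to the libraries compared and a replicate block. Further ones were the study's fold threshold of 2 in edgeR, subtraction of the share of other libraries, and leaving out each library. The tests were checked on simulated counts. Motifs were matched in RefSeq promoter windows. One item is not reported here. The TMM factors were 1.11 to 1.39 without LPS and 0.778 to 0.842 with LPS.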

Additional observations from a re-analysis of the deposited data

Results flagged for a closer look

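Each value here is a difference between 2 responses to LPS on the log2 scale, from an interaction term in edgeR with a BH-adjusted p under 0.05 over all genes. Of 40 tests (10 members in 4 interactions), 26 passed. For growth factor by LPS, 8 members passed on TC and 9 on noTC, with 41.1% and 36.2% of all genes. For dish by LPS, 4 passed in GM and 5 in M, with 0.783% and 10.6% of all genes.

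The response on TC dishes was larger in M than in GM cells by 4.68 for Ccl7, 4.21 for Ccl24, 3.97 for Ccl2, 2.66 for Ccl3, 2.14 for Ccl12, 1.54 for Ccl4, 0.996 for Ccl9 and 0.57 for Ccl5. On noTC dishes it was larger in M by 4.63 for Ccl24, 3.62 for Ccl8, 3.42 for Ccl7, 2.94 for Ccl2, 2.79 for Ccl12, 2.43 for Ccl3, 1.297 for Ccl4, 0.800 for Ccl9 and 0.57 for Ccl5. The values of Ccl24 and Ccl8 start from 1 to 27 and from 7 to 21 summed counts in a group at steady state.

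The response on noTC minus that on TC was -1.43 for Ccl7, -1.16 for Ccl2, -1.04 for Ccl5 and -0.46 for Ccl4 in GM cells. In M cells it was -2.69 for Ccl7, -2.19 for Ccl2, -1.03 for Ccl5, -0.700 for Ccl4 and -0.44 for Ccl3. With the share of other libraries subtracted, Ccl4 and Ccl5 in GM and Ccl3 and Ccl5 in M no longer passed, nor did the larger response of Ccl5 in M on noTC (0.074, BH-adjusted p = 0.749).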

How the results depend on the processing

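The members called upon LPS and between growth factors numbered within 1.5 times of the values above under the alternatives, with an exception. The stricter of the study's thresholds, a fold above 2 and an unadjusted p under 0.05, left 4 of 8 between growth factors on noTC upon LPS. It was applied here to the edgeR fit, whereas the study used DESeq2 and, between dishes upon LPS, also a fold above 1.5. The fold above 2 gave 3 calls for the dish in GM (Ccl2 and Ccl7 of the 5, and Ccl12). It left 2 of 5 in M, 1 of 6 in M upon LPS and 3 of 5 for the interaction of dish and LPS in M. Subtraction of the share of other libraries gave 3 calls for the dish in M (Ccl2 and Ccl7 of the 5, and Ccl6 as lower), and left for its interaction with LPS 2 of 4 in GM and 3 of 5 in M. The single call for the dish in GM upon LPS (Ccl8) became 0 with DESeq2, its size factors, the replicate block or the subtraction, a fit to the compared libraries alone called Ccl3 in its place, and 3 members were called without an expression filter. In that comparison leaving out 1 library gave 0 calls each time, and in the same comparison of M it gave 2 to 4 of 6.

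With library size only, Ccl6 upon LPS changed sign to -0.45 (TC) and -0.32 (noTC) in GM and -0.61 (TC) and -0.48 (noTC) in M cells, and Ccl5 between growth factors on noTC to 0.26. With the subtraction, that value of Ccl5 became 0.47 and was called, its dish difference -0.38 in GM and -0.15 in M, its interaction of dish and LPS in GM 0.28, and the dish difference of Ccl6 in M -0.19. Library size only also moved the calls of all genes, so that 78.5% to 81% of those upon LPS were lower. Libraries with the same number did not deviate together (r between -0.0691 and 0.0206), and with the replicate block Ccl8 for the dish in GM upon LPS was not called (-2.404), and Ccl12 (0.72) on noTC and Ccl9 (-0.12) on noTC upon LPS were called between growth factors. With 1 library left out, 1 group has a single library that is assumed to vary like the others. Ccl8 and Ccl24 rest on few counts, and 2 libraries a group limit every comparison.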
